A study of Mus musculus with 72 samples.

Results

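Lung mRNA was compared between mice given a single X-ray dose of 8 Gy to the whole body and sham-irradiated mice, 48 h after exposure. The 6 arrays were chosen by their labels alone, as those titled lung at 8 Gy (mice 5, 15 and 25) and lung at 0 Gy (mice 1, 11 and 21), and they are 6 of the 72 samples of the series. All mice were female C57BL/6 J animals, 6 to 8 weeks old at exposure, and carried no transgene or other treatment. Confinement in a plastic container was common to all groups, the sham-irradiated one included. The whole series holds mRNA and miRNA arrays of lung and liver from 18 mice, 3 at each of 0, 1, 2, 4, 8 and 12 Gy. Frozen lung was powdered whole, so that each array reads the RNA of all cells of the organ and of the blood in it, and the polyadenylated RNA was amplified before labelling. In each sentence below that lists levels, those of 0 Gy mice 1, 11 and 21 come first and those of 8 Gy mice 5, 15 and 25 second, both on the log2 scale of the normalized probe intensity.

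Ionizing radiation breaks DNA. The breaks activate the kinase ATM and the transcription factor p53, which switches on genes of cell cycle arrest, such as Cdkn1a, and of cell death, such as Bax, while genes of mitosis are repressed. Lymphocytes and red cell precursors are among the cells most sensitive to radiation. The resting epithelium and fibroblasts of the lung are known to survive acute doses and to be altered at later times, in pneumonitis and fibrosis.

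Between 54.8% and 64.0% of the spots on these 6 arrays were well above background, and no spot was saturated. The lowest share and the lowest 75th percentile of spot intensity, 690 against 1148 to 1281 on the other 5 arrays, were those of 8 Gy mouse 25. The 0 Gy arrays lay on slide 3 with those of 1 Gy, 8 Gy mice 5 and 15 lay on slide 4 with 2 and 4 Gy, and 8 Gy mouse 25 lay on slide 5 with 12 Gy, so that dose and slide cannot be told apart. On the first principal component of the 18 lung arrays (26.8% of the variance), 8 Gy mouse 25 stood at 76.7, among the 12 Gy arrays at 75.04 to 93.8, and mice 5 and 15 stood at 1.48 and 0.08. The design text of the series names hearts as the organ taken, whereas the sample labels name lung. Defining lung markers were at the top of the scale on all 6 arrays, with levels of 18.24 to 18.40 for Sftpc (surfactant protein C of alveolar type 2 cells) and of 17.51 to 17.84 for Ager (alveolar type 1 cells). Markers of other tissues also differed between libraries. The mean level of 10 skeletal muscle markers, counted from the 0 Gy mean, was 3.12 in 0 Gy mouse 11 and 2.55 and 2.75 in 8 Gy mice 5 and 15, against -1.70 to -1.51 in the other 3, and the 8 markers of squamous and basal epithelium were higher in the same 3 mice (1.49 to 2.39, against -1.30 to -0.77). The 8 thymus markers averaged 1.36 in 0 Gy mouse 21, above 0 Gy mice 1 and 11 at -0.95 and -0.41. No member of the muscle and squamous lists was called, although the medians of their log2 fold changes were 1.41 and 0.60.

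At 8 Gy, more mRNAs were lower than higher. Of 43979 probes tested, 1105 (2.51%) were called, which means an absolute log2 fold change above 1 with an adjusted p below 0.05 (limma, Benjamini-Hochberg over all probes tested, n = 3 mice per dose), and 873 of these were lower and 232 higher. The median log2 fold change of all probes tested was 0.04. The 3 irradiated mice lay apart from the 3 controls, on one side, for 1098 of the called probes and for 7692 of all probes tested. Counted as genes, 680 of 19875 named genes were called by at least 1 probe, 152 higher and 528 lower, and none was called in both directions. When each gene was represented by its brightest probe, as in all lists below, 138 genes (0.694%) were higher and 490 (2.47%) lower. Of the called probes, 222 were not well above background in any 8 Gy mouse, and for these the fold is given as a lower limit. The count of 1105 became 689 with the slide as a random block and 530 when only the 6 arrays of the comparison were used.

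**Figure D1:**
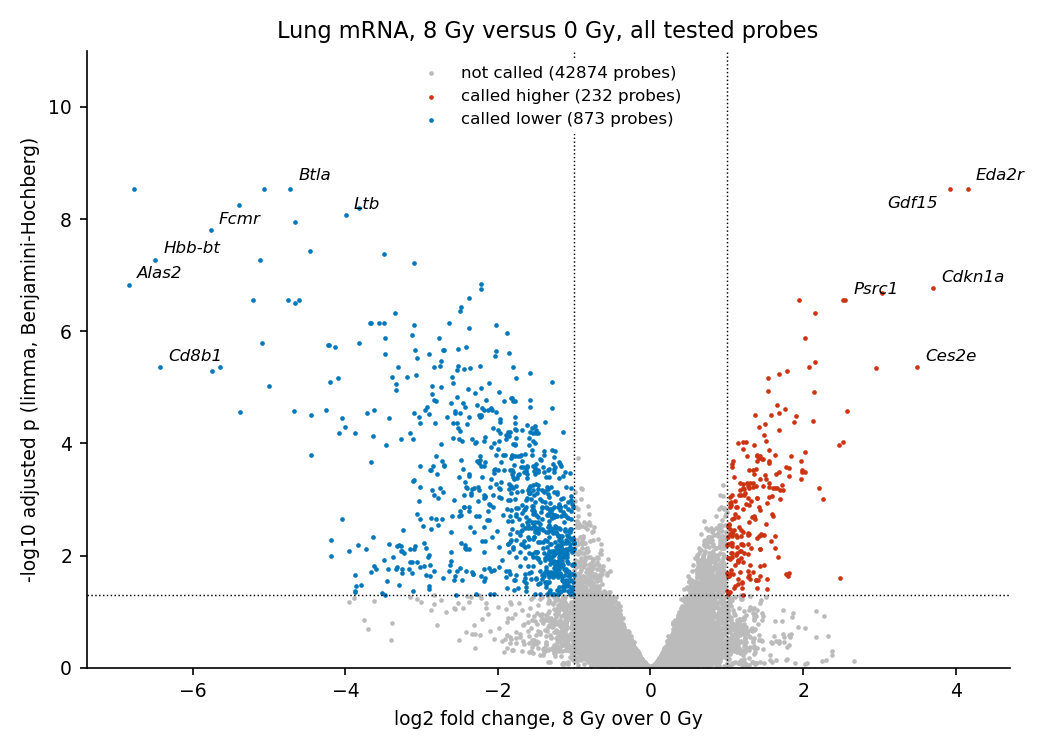
Each point is 1 of 43979 tested probes, with the log2 fold change of 8 Gy over 0 Gy on the x axis and -log10 of the limma adjusted p on the y axis (n = 3 mice per dose). Dotted lines mark the thresholds of the call. The 873 probes called lower reach a log2 fold change of -6.84 (Alas2), and the 232 called higher reach 4.16 (Eda2r).

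The genes with the largest increases were targets of p53. Eda2r, a receptor of the TNF receptor family, had levels of 5.96, 6.08 and 6.17 at 0 Gy and of 10.19, 10.13 and 10.36 at 8 Gy, a log2 fold change of 4.16 (SE 0.18, 17.9-fold, adjusted p = 2.89e-09). Gdf15, a secreted stress cytokine, rose from 7.58, 7.57 and 7.26 to 11.01, 11.59 and 11.57, a log2 fold change of 3.92 (SE 0.17, 15.2-fold). The brighter probe of Cdkn1a, the gene of the cyclin-dependent kinase inhibitor p21, rose from 11.37, 11.79 and 11.49 to 14.53, 14.18 and 15.04, a log2 fold change of 3.03 (SE 0.20, adjusted p = 2.12e-07), and its dimmer probe had a log2 fold change of 3.70 (SE 0.24). For all 3 genes every 8 Gy mouse lay above every 0 Gy mouse by more than 2 log2 units.

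Of 32 p53 targets tested, 16 were higher and 1 was lower at 8 Gy, against 0.694% and 2.47% of all named genes. Their median log2 fold change was 0.91, and 30 of the 32 had a positive value. Among the genes of growth arrest, Ccng1 (cyclin G1) rose from 11.95, 12.39 and 12.21 to 13.38, 13.99 and 13.05 (log2 fold change 1.29, SE 0.22), and Psrc1, which encodes a microtubule-binding protein, from 7.504, 7.71 and 8.00 to 10.15, 10.35 and 10.36 (log2 fold change 2.55, SE 0.17). Btg2, an antiproliferative gene, was not called: its levels of 12.97, 12.14 and 12.40 overlapped those of 12.88, 12.78 and 13.14 at 8 Gy. Among the genes of cell death, the BCL2 family members Bax and Pmaip1 rose by 1.34 (SE 0.18) and 1.68 (SE 0.15), and Aen, an apoptosis-enhancing nuclease, by 1.54 (SE 0.14), all as log2 fold changes. Bbc3, which encodes the BCL2 family protein PUMA, missed the call on size with a log2 fold change of 0.72 (adjusted p = 0.00836), although its levels at 8 Gy (12.03, 12.00 and 12.05) all lay above those at 0 Gy (11.51, 11.32 and 11.10). The death receptor gene Fas was not called either, with 13.36 and 13.45 in 8 Gy mice 5 and 15 but 12.76 in mouse 25, within the 0 Gy range of 12.70 to 12.92.

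Targets that regulate p53 or growth signalling rose as well. Mdm2, the ubiquitin ligase that degrades p53, rose from 12.39, 12.17 and 12.46 to 13.53, 13.45 and 13.48 (log2 fold change 1.15, SE 0.14, adjusted p = 9.73e-05), and a second Mdm2 probe missed the call with 0.94. Phlda3, an inhibitor of AKT signalling, rose from 13.11, 12.93 and 12.60 to 14.11, 14.02 and 14.31 (1.27, SE 0.16), and Ddit4l, an inhibitor of mTOR signalling, from 7.39, 7.61 and 7.29 to 8.98, 9.28 and 9.68 (1.88, SE 0.21). In each of these genes the 3 mice of one dose lay closer to each other than to any mouse of the other dose. The member that fell was Tap1, the peptide transporter of antigen presentation, from 11.25, 10.66 and 10.44 to 9.88, 9.27 and 9.15 (log2 fold change -1.35, SE 0.25, adjusted p = 0.00377), and a second Tap1 probe was not called. The count of 16 stayed at 15 or 16 when any 1 mouse was left out and with the slide as a random block, and was 11 with the 6 arrays alone.

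Promoter sequence of 5 of the p53 targets that rose, the 250 bases before the transcription start site in RefSeq on GRCm38.p6, is shown because each holds a p53 half-site, the 10-base unit that p53 dimers bind, searched on both strands by its degenerate consensus. Capitals mark the match. Cdkn1a has 2 promoters in this annotation, of which 1 is shown. The one shown (chr17:29090729-29090978, plus strand) holds 2 matches, at 73 and 51 bases before the start, which together form a full site with a spacer of at most 13 bases. The others are Mdm2 (chr10:117710759-117711008, minus strand, match at 186 bases), Ddit4l (chr3:137623422-137623671, plus strand, at 90), Ccng1 (chr11:40755287-40755536, minus strand, at 185) and Bax (chr7:45466899-45467148, minus strand, at 201). The promoter of Eda2r (chrX:97377210-97377459, minus strand), the gene with the largest rise, has no match in these bases and is shown beside them.
Cdkn1a: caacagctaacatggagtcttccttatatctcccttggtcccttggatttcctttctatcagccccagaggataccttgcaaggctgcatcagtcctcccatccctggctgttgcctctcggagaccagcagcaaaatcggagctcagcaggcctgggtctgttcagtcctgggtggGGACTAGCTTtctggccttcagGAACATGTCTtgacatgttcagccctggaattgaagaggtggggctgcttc
Mdm2: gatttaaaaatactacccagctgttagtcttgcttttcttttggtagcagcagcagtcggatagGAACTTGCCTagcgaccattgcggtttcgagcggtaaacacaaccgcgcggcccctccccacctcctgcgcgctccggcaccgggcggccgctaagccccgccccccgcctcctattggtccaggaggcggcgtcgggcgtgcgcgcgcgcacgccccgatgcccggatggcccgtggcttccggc
Ddit4l: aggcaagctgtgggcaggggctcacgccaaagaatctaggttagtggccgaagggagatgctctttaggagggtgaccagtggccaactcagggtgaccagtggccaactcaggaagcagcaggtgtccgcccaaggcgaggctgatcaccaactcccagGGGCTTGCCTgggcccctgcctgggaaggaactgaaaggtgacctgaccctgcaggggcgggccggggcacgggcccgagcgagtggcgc
Ccng1: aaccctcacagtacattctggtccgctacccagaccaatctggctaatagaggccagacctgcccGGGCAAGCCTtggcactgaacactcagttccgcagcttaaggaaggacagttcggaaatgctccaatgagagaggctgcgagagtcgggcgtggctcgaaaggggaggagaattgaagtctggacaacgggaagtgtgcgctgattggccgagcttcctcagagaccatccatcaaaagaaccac
Bax: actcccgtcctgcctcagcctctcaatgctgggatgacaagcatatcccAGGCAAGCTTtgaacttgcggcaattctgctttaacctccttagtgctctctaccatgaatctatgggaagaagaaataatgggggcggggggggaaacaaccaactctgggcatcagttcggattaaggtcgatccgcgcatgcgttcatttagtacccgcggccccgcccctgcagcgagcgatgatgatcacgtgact
Eda2r: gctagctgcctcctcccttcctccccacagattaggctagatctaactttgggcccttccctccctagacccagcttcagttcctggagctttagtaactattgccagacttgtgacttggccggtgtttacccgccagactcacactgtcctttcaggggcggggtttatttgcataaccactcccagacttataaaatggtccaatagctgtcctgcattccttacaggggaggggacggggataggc

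Over promoters of 250 bases before to 50 bases after the start, a p53 half-site was present in 11 of 34 promoters (32.4%) of the list, which belong to 24 of its 32 genes. Among the list's genes called higher the share was 8 of 17 (47.1%). It was 16.2% in the promoters of all genes called higher and 5.25% in those of genes called lower, against 7.62% of the promoters of all genes tested and 8.36% of 32851 promoters in all. A full site was found in 1 of the list's promoters, the Cdkn1a promoter shown above, and in 24 promoters (0.0731%) in all. These are counts of letters in short windows, with no test.

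Genes of mitosis were lower in all 3 irradiated lungs. Of 30 tested, 22 were lower and none higher at 8 Gy, against 2.47% of all named genes lower. Their median log2 fold change was -1.46, and all 30 values were negative. Mki67, the proliferation marker, fell from 10.35, 10.54 and 11.91 to 7.74, 7.95 and 6.70 (log2 fold change -3.47, SE 0.42, adjusted p = 0.000107). Birc5, which encodes survivin of the chromosomal passenger complex, fell from 9.45, 9.89 and 11.39 to 7.39, 7.43 and 7.26 (-2.88, SE 0.39), and Top2a, the topoisomerase of chromosome condensation, from 8.84, 9.46 and 10.73 to 7.13, 7.48 and 7.09 (-2.44, SE 0.39). In all 3 genes 0 Gy mouse 21 was the highest of the 6, and the groups did not overlap. The mitotic cyclins Ccna2 (-2.41) and Ccnb1 (-2.43) and the kinases Plk1 (-1.54) and Aurkb (-1.69) fell as well, by their log2 fold changes, while a second Ccnb1 probe was not called and the first lost its call with the slide as a random block. Cdk1, the mitotic kinase itself, was not called on its brightest probe (-0.09, levels of 6.56, 6.89 and 7.04 against 6.80, 7.11 and 6.32), and its other probe was called lower.

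The list's mean over its members was -0.58, -0.18 and 0.75 in the 0 Gy mice, counted from their mean, and between -1.65 and -1.41 in the 8 Gy mice. The thymus and T cell lists were highest in the same 0 Gy mouse 21, and their part in the mitosis values was not tested. Without that mouse 15 of the 29 genes then tested were lower. The count of 22 of 30 became 10 with the slide as a random block and 7 with the 6 arrays alone, against 16 to 25 without any 1 of the other mice.

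The promoters of Top2a (chr11:99024190-99024439, minus strand) and Mki67 (chr7:135716380-135716629, minus strand) show the CHR element, the letters TTTGAA on either strand, through which the repressive DREAM complex is known to bind mitotic genes. Capitals mark the 2 matches in each, at 179 and 23 bases before the start in Top2a and at 116 and 98 in Mki67 (RefSeq, GRCm38.p6, 250 bases before the start).
Top2a: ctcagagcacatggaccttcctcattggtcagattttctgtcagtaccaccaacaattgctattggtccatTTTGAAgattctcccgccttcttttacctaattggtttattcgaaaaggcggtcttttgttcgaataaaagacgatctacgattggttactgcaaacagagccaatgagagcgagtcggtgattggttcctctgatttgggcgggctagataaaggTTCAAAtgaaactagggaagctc
Mki67: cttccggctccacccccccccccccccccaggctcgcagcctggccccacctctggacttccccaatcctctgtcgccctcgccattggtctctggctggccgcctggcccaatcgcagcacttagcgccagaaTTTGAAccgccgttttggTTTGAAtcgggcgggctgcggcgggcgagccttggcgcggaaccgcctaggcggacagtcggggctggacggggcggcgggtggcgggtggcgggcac

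The CHR element was present in 20 of 27 promoters (74.1%) of the mitosis list, which belong to 25 of its 30 genes, and in 24.2% of the promoters of genes called lower, 15.6% of those of genes called higher and 14.1% of those of genes tested. The CCAAT box, the letters CCAAT on either strand, was present in 21 of the 27 (77.8%) and in 37.4% of all promoters. The E2F site, searched as TTTGGCGC or TTTCCCGC on either strand, was present in none of them, in 8 of 29 promoters (27.6%) of the DNA replication list and in 1.56% of all promoters. The motifs were counted separately, and matches of different motifs may overlap at their end bases.

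Some genes of DNA replication and repair fell, and most did not pass the test. Of 30 replication genes tested, 5 were lower and none higher, against 2.47% of named genes lower (median log2 fold change -0.54), and of 28 genes of damage signalling and repair 5 were lower and none higher (median -0.15). Tk1, thymidine kinase, fell from 8.92, 9.46 and 10.13 to 7.41, 7.49 and 7.34 (log2 fold change -2.09, SE 0.30), E2f8, a repressor of the E2F family, from 7.40, 7.36 and 8.70 to 5.87, 5.83 and 5.45 (-2.11, SE 0.31), and Rrm2, a subunit of ribonucleotide reductase, from 10.26, 10.56 and 11.75 to 9.26, 9.08 and 9.43 (-1.60, SE 0.29). The helicase subunits Mcm2 (-0.78, adjusted p = 0.0935) and Mcm3 (-0.76, adjusted p = 0.0325) were not called, nor was the polymerase clamp Pcna (-0.09). The damage kinases Atm and Atr were not called, with log2 fold changes of -0.07 (SE 0.21) and -0.29 (SE 0.24) and overlapping mice. The repair genes that fell included those of homologous recombination and crosslink repair Rad51ap1 (-1.82, SE 0.33), Fanci (-1.38, SE 0.34), Brca1 (-1.26, SE 0.20) and Exo1 (-1.24). A second Brca1 probe was not called, and Fanci lost its call without any 1 of 5 of the 6 mice and with the slide as a random block. Both counts of 5 became 3 without 0 Gy mouse 21, that of replication became 8 without 0 Gy mouse 1 and on the processed signal and the series values, and that of repair was also 3 without 8 Gy mouse 15 or 25. With the slide as a random block they were 3 for replication and 2 for repair, and with the 6 arrays alone 2 and 1. At an offset of 50 in the background correction they were 4 and 1. With the 6 arrays alone Rrm2, Rad51ap1 and Brca1 lost their calls, and Brca1 also lost its call at that offset and with the probes of a transcript averaged.

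**Figure D2:**
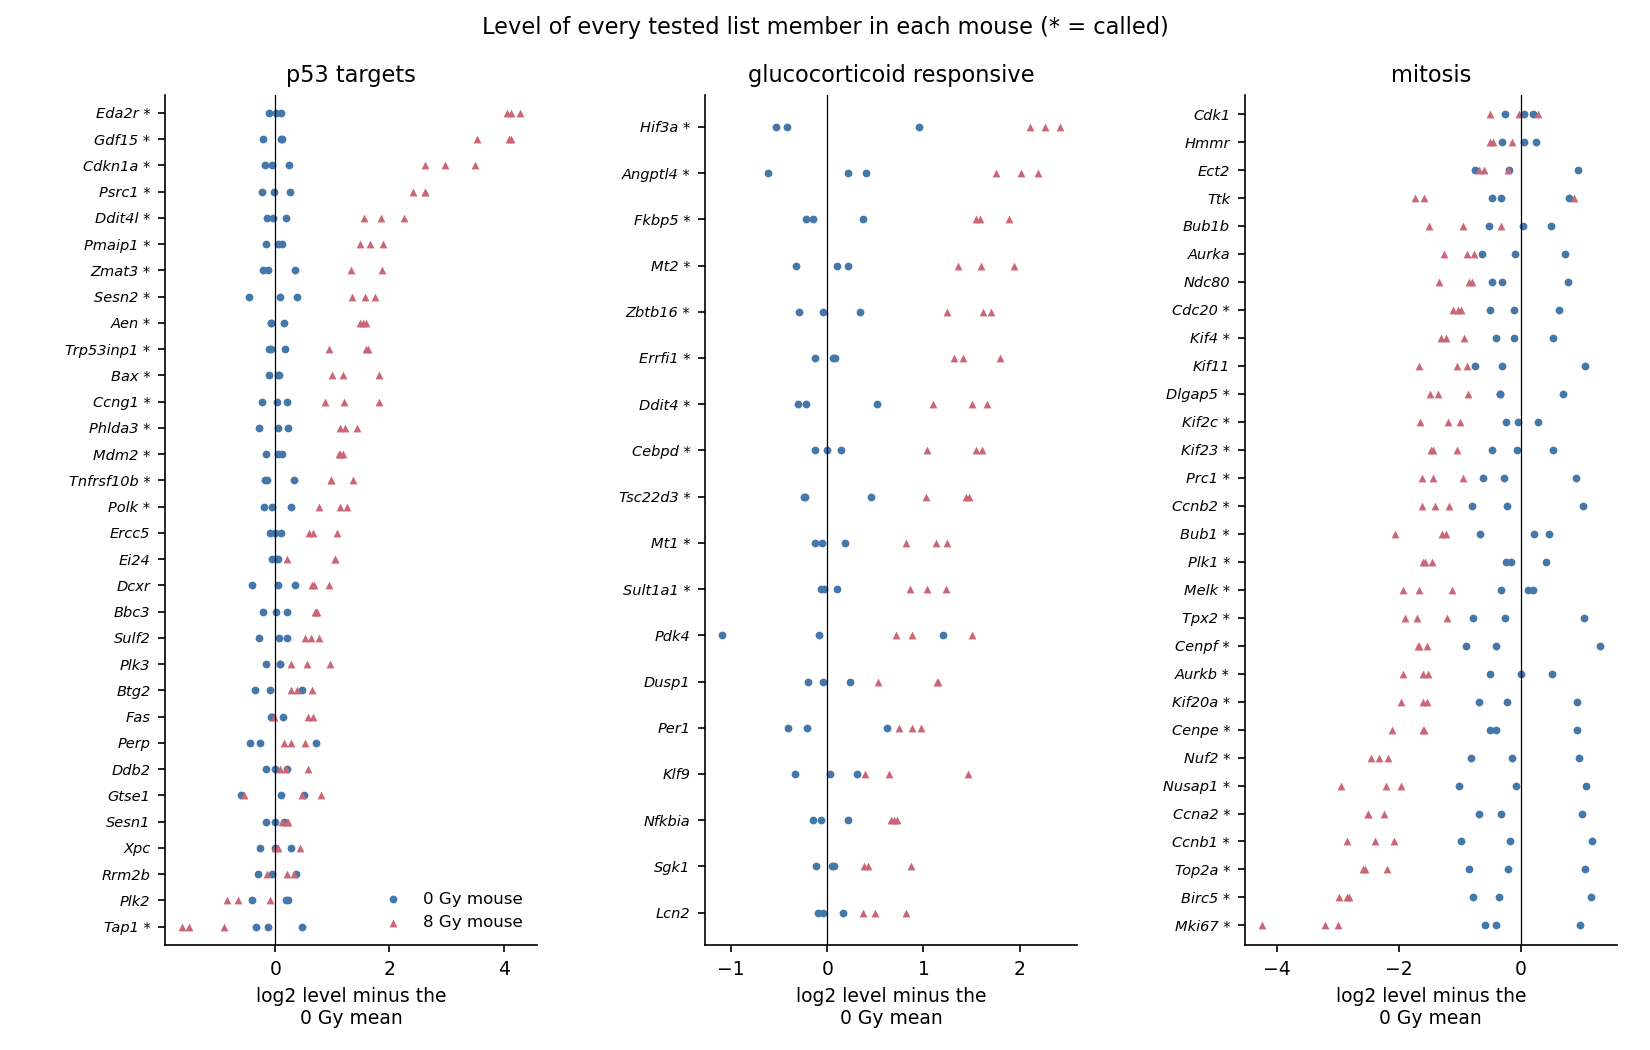
Every tested member of the p53 target, glucocorticoid responsive and mitosis lists is a row, with the log2 level in each mouse minus the 0 Gy mean on the x axis, circles for the 3 mice at 0 Gy and triangles for the 3 at 8 Gy, and an asterisk for a called gene. The triangles lie to the right of the circles for 22 of 32 p53 targets and 17 of 18 glucocorticoid responsive genes, and to the left for 25 of 30 mitosis genes. Of all 43979 probes tested, 7692 had groups that lay apart, in either direction.

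Markers of B cells fell more than those of any other blood cell list, by their median. Of 20 tested, 17 were lower and none higher, against 2.47% of named genes lower, and their median log2 fold change was -3.96. In whole lung RNA, fewer cells of a type and less RNA per cell cannot be told apart. Ms4a1, which encodes CD20, fell from 11.30, 12.50 and 13.14 to 7.46, 7.18 and 7.01 (log2 fold change -5.10, SE 0.41), and Fcmr, the receptor for the Fc part of IgM, from 11.52, 12.35 and 12.85 to 6.15, 6.33 and 6.93 (-5.77, SE 0.30). The highest irradiated mouse lay more than 3 log2 units below the lowest control in both genes.

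Several B cell genes were not well above background in any 8 Gy mouse, so that their fall is a lower limit. Fcer2a, the low-affinity IgE receptor CD23, was at least 35.2-fold lower (mean level 10.42 at 0 Gy and 5.21 at 8 Gy, adjusted p = 2.74e-07). Tnfrsf13c, the receptor for the survival factor BAFF, was at least 27.2-fold lower (9.83 and 4.70, adjusted p = 5.39e-08), and Cd79a, a signalling chain of the B cell receptor, at least 12.8-fold (8.44 and 4.62, adjusted p = 1.61e-06). A second Tnfrsf13c probe was not called. Cr2, complement receptor 2, stayed well above background in 1 of 3 irradiated mice and fell from 9.42, 9.52 and 10.71 to 4.99, 5.68 and 4.74 (log2 fold change -4.75, SE 0.32). The members not called were the early B cell factors Ebf1 (-0.02, levels of 10.54, 10.28 and 10.73 against 10.22, 10.26 and 11.02) and Pax5 (-0.77), and Vpreb3 (-0.45). The count of 17 held without any 1 mouse and with the slide as a random block.

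MHC class II genes present antigen on B cells, dendritic cells and macrophages. Of 12 tested, 9 were lower, against 2.47% of all named genes, and none was higher (median log2 fold change -1.54). The peptide-loading regulators H2-Ob and H2-Oa, chains of the HLA-DO type found mainly in B cells, fell from 10, 10.39 and 10.43 to 6.42, 6.46 and 6.47 (-3.82, SE 0.18) and from 10.43, 10.91 and 11.20 to 7.25, 7.24 and 7.55 (-3.50, SE 0.20). The classical chain H2-Aa fell less, from 13.40, 14.38 and 13.89 to 12.39, 12.67 and 12.67 (-1.31, SE 0.24), and the brightest probe of H2-Ab1 missed the call (-0.99, adjusted p = 0.00715) while 3 of its other probes were called lower. The invariant chain Cd74 was lower in every irradiated mouse (15.19, 15.25 and 15.83 against 16.23, 16.29 and 16.39) without passing the size threshold (-0.88). H2-Eb2 and H2-DMb2 were not well above background at 8 Gy and were at least 10.6-fold (mean level 8.46 and 4.98, adjusted p = 1.33e-06) and at least 4.93-fold lower (7.54 and 5.05, adjusted p = 2.82e-05). A second H2-Eb2 probe was not called. Ciita, the master regulator of class II transcription, fell from 11.73, 11.08 and 11.45 to 9.08, 9.36 and 9.66 (-2.06, SE 0.28).

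Markers of T cells were lower in 18 of 22 tested, against 2.47% of all named genes. None was higher, and the median log2 fold change was -2.38. The receptor chain Cd3e fell from 10.29, 10.93 and 12.43 to 8.04, 8.19 and 7.98 (-3.15, SE 0.36, adjusted p = 6.47e-05), Cd3d from 11.22, 11.80 and 13.12 to 7.74, 7.98 and 8.00 (-4.14, SE 0.33) and the kinase Lck from 10.47, 10.58 and 12.56 to 7.05, 7.74 and 7.89 (-3.64, SE 0.43). In each the highest control was mouse 21, and every irradiated mouse lay below every control. The largest fall was in the coreceptor of cytotoxic T cells. Cd8b1 went from 10.31, 11.56 and 13.85 to 5.28, 5.73 and 5.41 (-6.43, SE 0.57, 86.4-fold), with 2 of 3 irradiated mice still well above background, and Cd8a, with none, was at least 34.6-fold lower (mean level 9.97 and 4.58, adjusted p = 2.8e-05). The coreceptor of helper T cells, Cd4, was not called (-0.70, adjusted p = 0.316), with levels of 10.20, 10.39 and 11.62 against 10.34, 10.51 and 9.25 that overlapped.

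Thymus markers give the context for 0 Gy mouse 21. Dntt, the terminal transferase of developing lymphocytes, had levels of 5.83, 8.22 and 13.22 at 0 Gy and of 5.36, 4.90 and 5.17 at 8 Gy, and Rag2, of the antigen receptor recombinase, had 8.73 in mouse 21 and at most 4.61 in the other 5. Neither was called (adjusted p = 0.0683 and 0.302), and the gene called among 8 of the list was Themis, of thymocyte selection, at least 4.51-fold lower (mean level 6.94 and 4.44, adjusted p = 0.0169), a call lost without 8 Gy mouse 5 or 15 and with the slide as a random block. Rag1, of the same recombinase, was not well above background in any control, mouse 21 included, and was not called (log2 fold change 0.46). Of the 8 list members, 3 had positive and 5 negative log2 fold changes. The part of the thymus transcripts in the T cell values was not tested. Without 0 Gy mouse 21, 17 of the 22 T cell genes were lower and over all 15 alternatives run the log2 fold change of Cd8b1 lay between -7.23 and -5.36, while the median of the thymus list went from -0.50 to 0.05.

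Genes of natural killer and cytotoxic cells were lower in 13 of 16 tested, against 2.47% of all named genes. None was higher, and the median log2 fold change was -1.40. Klrd1, a chain of the CD94 receptor, fell from 11.10, 11.05 and 10.88 to 8.83, 8.95 and 8.35 (-2.30, SE 0.22, adjusted p = 1.25e-05), and Eomes, a transcription factor of these cells, from 7.57, 7.26 and 7.30 to 5.30, 5.53 and 5.81 (-1.83, SE 0.18). The activating receptors Ncr1 and Klrb1c fell less, by -1.36 (SE 0.26) and -1.26 (SE 0.28) as log2 fold changes, and second probes of Eomes and Klrb1c were not called. The granule genes divided: Gzma and Nkg7 were called lower (-1.62 and -1.76), whereas Gzmb (-0.85, adjusted p = 0.102) and Prf1 (-0.46, with overlapping mice) were not. The 0 Gy mice lay close together for this list, with means of -0.01, -0.04 and 0.05 against -1.69, -1.51 and -1.24 at 8 Gy. With the slide as a random block 8 of the 16 were called, without Ncr1 and Klrb1c, and Klrb1c also lost its call without 0 Gy mouse 11 or 21 or 8 Gy mouse 5.

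**Figure D3:**
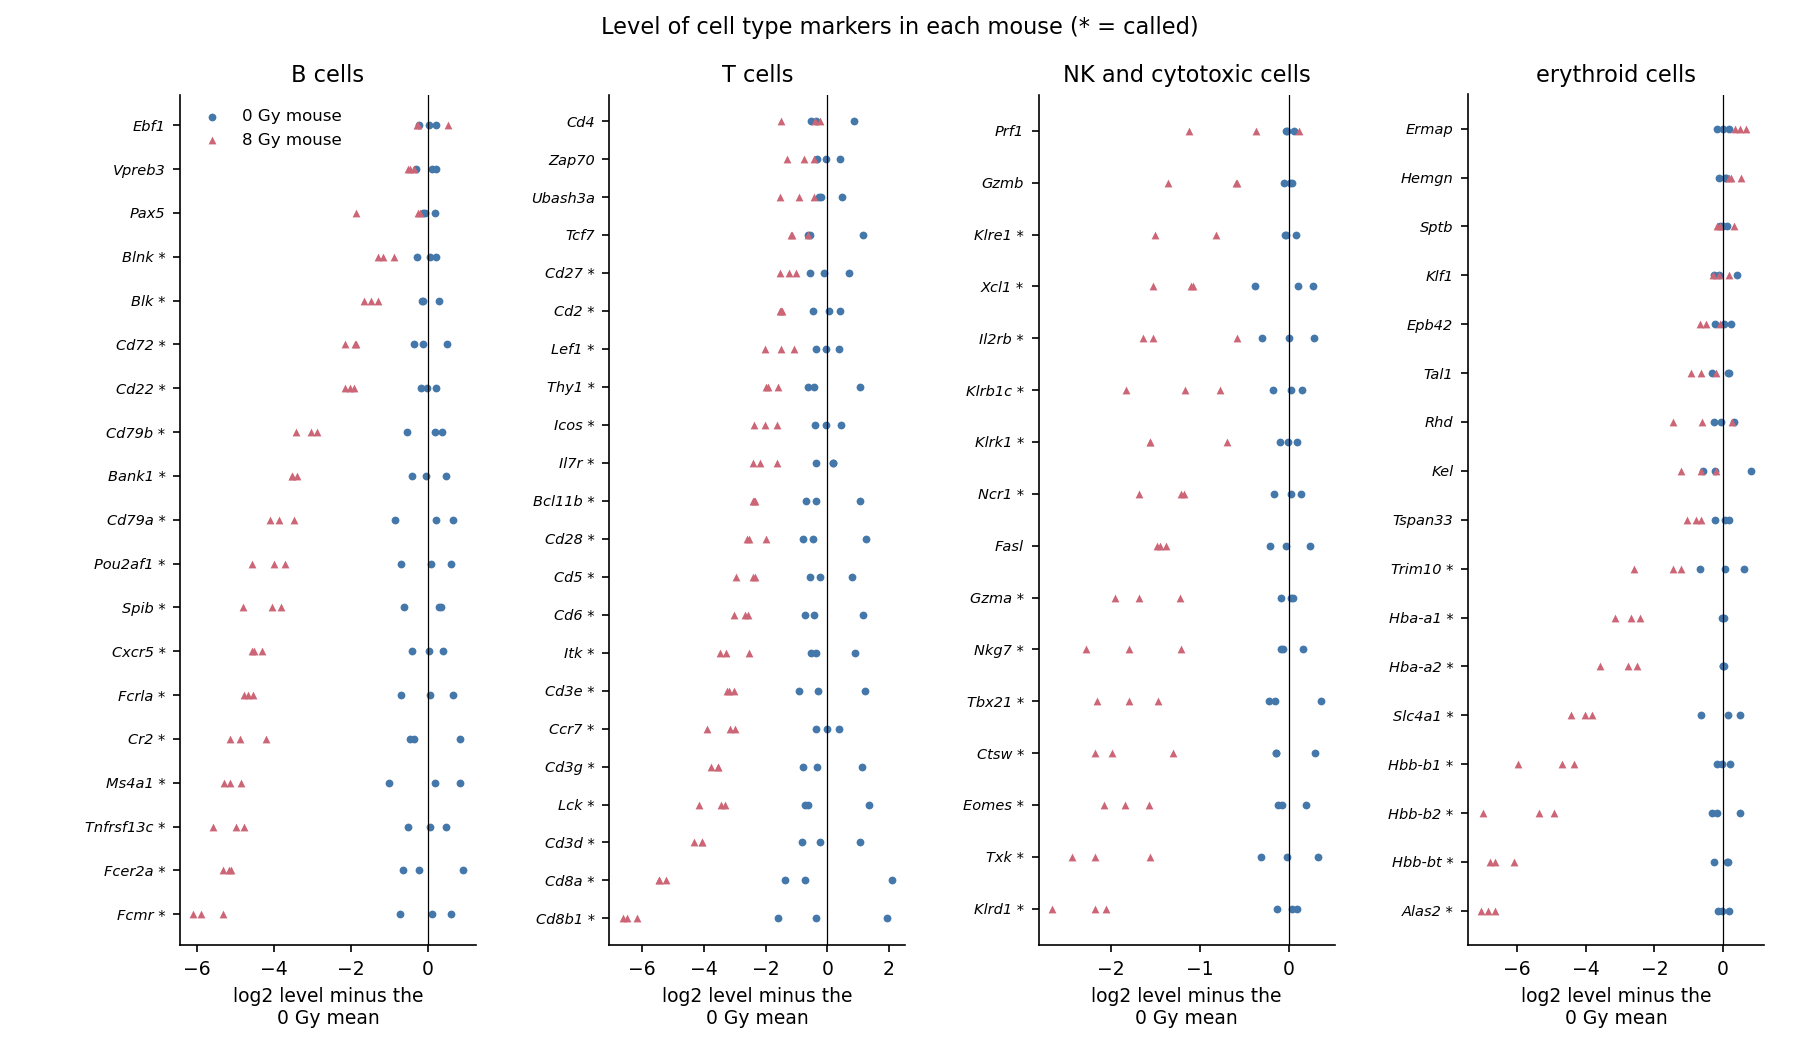
Markers of B cells, T cells, natural killer and cytotoxic cells and erythroid cells are rows, with the log2 level in each mouse minus the 0 Gy mean on the x axis, circles for 0 Gy and triangles for 8 Gy, and an asterisk for a called gene. The triangles lie to the left of the circles for 18 of 19 B cell, 21 of 22 T cell, 15 of 16 natural killer and 9 of 17 erythroid genes plotted. Of all 43979 probes tested, 7692 had groups that lay apart, in either direction.

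Some markers of monocytes and dendritic cells fell and others did not pass the test. Of 16 monocyte genes, 5 were lower, against 2.47% of all named genes, and none was higher (median log2 fold change -0.43). Of the 5, 4 mark the patrolling, Ly6C-low type. They were Cd300e (8.62, 8.53 and 8.77 to 5.75, 6.17 and 6.09, log2 fold change -2.64, SE 0.19), Treml4 (-2.45, SE 0.22), Spn, which encodes CD43 (-2.21, SE 0.23), and the fractalkine receptor Cx3cr1 (-1.87, SE 0.22). The fifth was Ccr2, the chemokine receptor of inflammatory monocytes, which fell from 8.42, 8.30 and 7.43 to 6.46, 5.66 and 5.53 (-2.17, SE 0.28), whereas Ly6c2, the surface marker of the same cells, had higher levels at 8 Gy (17.47, 17.66 and 17.87) than at 0 Gy (17.02, 16.98 and 16.96) and missed the size threshold (0.68, adjusted p = 0.0146). Ly6c2 lay near the top of the scale and Ccr2 far below it, and which cells gave the Ly6c2 signal was not tested. A second Spn probe was not called.

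Of 15 dendritic cell genes 9 were lower (median -1.12), against 2.47% of all named genes. Flt3, the growth factor receptor of these cells, fell from 8.77, 8.52 and 8.49 to 6.33, 5.86 and 6.35 (-2.41, SE 0.20), and the factors of the cross-presenting type, Irf8 and Batf3, fell by 1.40 and 1.34 on the log2 scale. Xcr1, the chemokine receptor of that type, was well above background in 1 control and no irradiated mouse and was at least 1.53-fold lower (mean level 5.38 and 4.36, adjusted p = 0.0012), a call lost without 0 Gy mouse 21 or 8 Gy mouse 5. Ccr9, of plasmacytoid dendritic cells and thymocytes, went from 6.95, 8.00 and 11.03 to 5.30, 5.23 and 5.56 (-3.30, SE 0.65), again with mouse 21 the highest, and lost its call with the slide as a random block.

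Markers of alveolar macrophages, neutrophils and platelets had 1 call between them, against 2.47% of all named genes called lower and 0.694% higher. None of 20 alveolar macrophage genes was called (median log2 fold change -0.20). Chil3, a chitinase-like protein abundant in these cells, had 16.07, 16.49 and 16.03 against 16.22, 15.53 and 16.30, and the scavenger receptor Marco 12.23, 12.03 and 12.31 against 12.80, 12.81 and 12.69 (0.58, SE 0.34). The mice overlapped for Chil3 and lay apart for Marco, whose adjusted p was 0.438. Of 16 neutrophil genes 1 was lower, the antimicrobial peptide Camp (9.51, 6.67 and 9.59 to 5.87, 6.07 and 5.09, log2 fold change -2.91, SE 0.74, adjusted p = 0.0352), which lost its call without any 1 of 5 of the 6 mice and with the slide as a random block. S100a8 and S100a9, the abundant calprotectin genes, were not called (-0.66 and -0.12). None of 12 platelet genes was called either, though all had negative values (median -0.50).

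Genes of red cell precursors included the largest fall measured. Alas2, the first enzyme of heme synthesis in erythroid cells, went from 13.58, 13.80 and 13.47 to 6.59, 6.98 and 6.77 (log2 fold change -6.84, SE 0.43, 115-fold, adjusted p = 1.48e-07). The beta globin genes Hbb-bt (16.89, 17.30 and 17.28 to 10.39, 11.07 and 10.53), Hbb-b2 (15.55, 16.38 and 15.71 to 10.53, 10.96 and 8.90) and Hbb-b1 (17.15, 17.53 and 17.31 to 12.64, 12.99 and 11.36) fell by 6.49, 5.75 and 5.00 on the log2 scale. The alpha globin probes fell less, with log2 fold changes of -2.74 (SE 0.26) for Hba-a1 and -2.95 (SE 0.31) for Hba-a2. Each of these 6 genes lay at least 2 log2 units lower in every irradiated mouse than in every control. Globin genes are near copies of each other, so that probes may read more than 1 of them and the fold of any single copy is uncertain.

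In all, 9 of 18 erythroid genes were lower, against 2.47% of all named genes, and none was higher, with a median of -1.30. Slc4a1, the anion exchanger of the red cell membrane, was not well above background at 8 Gy and was at least 16.1-fold lower (mean level 9.12 and 5.03, adjusted p = 6.47e-05). Regulators of the lineage were not called, with log2 fold changes of -0.59 for Tal1 and 0.31 for Hemgn, and Klf1 was not well above background in either group.

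Genes of signals between leukocytes were called in the lower direction. Of 31 cytokines and chemokines 6 were lower, against 2.47% of all named genes, and none was higher (median log2 fold change -0.38). Ltb and Lta, the lymphotoxins of lymphocytes, fell from 12.14, 12.02 and 12.64 to 8.02, 8.10 and 8.69 (-4.00, SE 0.20) and from 7.03, 7.27 and 8.08 to 5.52, 5.93 and 5.76 (-1.72, SE 0.24), and Ccl5, a chemokine of T and natural killer cells, from 13.69, 13.53 and 13.82 to 11.57, 12.25 and 12.25 (-1.66, SE 0.23). The groups did not overlap for any of the 3. Cxcl12, the chemokine of stromal cells, fell from 14.01, 13.84 and 14.15 to 13.05, 12.09 and 13.26 (-1.20, SE 0.26). Inflammatory cytokines were not called, among them Il1b (-0.40), Tnf (0.10) and Ccl2 (0.33), and Il6 was not well above background in any 8 Gy mouse. The count of 6 became 4 without 0 Gy mouse 11 or 21 and 3 with the slide as a random block.

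Of 25 interferon response genes 3 were lower, against 2.47% of all named genes, and the list's median was -0.19. Among the 3 were Rsad2 (10.34, 10.79 and 11.13 to 8.87, 9.50 and 9.02, log2 fold change -1.62, SE 0.23) and Cxcl10 (-1.34, SE 0.28). Ifit1 and Isg15, the most used markers of the response, were not called (0.03 and -0.60). Cxcl10 lost its call without 0 Gy mouse 11 or 8 Gy mouse 25 and with the slide as a random block, and 1 of the 3 genes was called without 8 Gy mouse 25 or with the slide as a random block.

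Most genes of a list that responds to glucocorticoids rose. Of 18 tested, 11 were higher and none lower, against 0.694% of named genes higher, and all 18 log2 fold changes were positive, with a median of 1.20. Fkbp5, a chaperone of the glucocorticoid receptor, rose from 10.51, 9.92 and 9.996 to 12.03, 11.69 and 11.73 (log2 fold change 1.67, SE 0.35, adjusted p = 0.0105). Tsc22d3, which encodes the anti-inflammatory protein GILZ, rose from 15.09, 14.41 and 14.40 to 16.11, 15.67 and 16.08 (1.32, SE 0.21), and Hif3a, an inhibitor of hypoxia-inducible factors, from 9.95, 8.58 and 8.46 to 11.42, 11.11 and 11.26 (2.27, SE 0.35). Mouse 1 was the highest of the 0 Gy mice in all 3, and every 8 Gy mouse lay above it. Angptl4, an inhibitor of lipoprotein lipase, rose by 1.99 (SE 0.27), the metallothioneins Mt2 and Mt1 by 1.63 and 1.07, and Errfi1, an inhibitor of EGF receptor signalling, by 1.503 on the log2 scale. Sgk1 and the clock gene Per1, also in this list, were not called (0.56 and 0.87). The list mean was 0.22, -0.21 and -0.02 at 0 Gy and 1.13, 1.22 and 1.37 at 8 Gy. The count of 11 was 9 to 12 without any 1 mouse, 9 with the slide as a random block and 7 with the 6 arrays alone. Zbtb16 (1.52, adjusted p = 0.039) lost its call without any 1 of 5 mice and Fkbp5 without 0 Gy mouse 21, and both lost it with the slide as a random block.

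Other stress lists showed few calls, against 0.694% of all named genes called higher and 2.47% lower. Among 16 NRF2 targets, Nqo1, an antioxidant reductase, rose from 8.53, 8.98 and 8.90 to 9.53, 10.51 and 10.07 (log2 fold change 1.23, SE 0.25, adjusted p = 0.00887), and lost this call with the slide as a random block and without 8 Gy mouse 15. Hmox1, heme oxygenase of the same list, was not called (0.13). None of 22 immediate early and Gadd45 genes (median 0.21), 17 circadian clock genes (median 0.18) or 22 genes of lipid and cholesterol synthesis (median -0.29) was called.

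Of 21 acute phase and complement genes 3 were higher, against 0.694% of all named genes, and none was lower (median log2 fold change 0.31). Cfb, factor B of the alternative complement pathway, rose from 11.27, 11.93 and 11.90 to 13.43, 13.17 and 13.39 (1.63, SE 0.24, adjusted p = 0.000631), and Serpina3n, a protease inhibitor, from 8.34, 8.94 and 8.50 to 9.75, 9.85 and 10.63 (1.48, SE 0.28). Saa3, serum amyloid A3, rose from 9.77, 10.33 and 9.53 to 13.30, 12.15 and 11.63 (2.48, SE 0.60, adjusted p = 0.0255), with the widest spread of the 3, and lost its call without any 1 of 4 mice and with the slide as a random block. Its relatives Saa1 and Saa2 were not called (2.17, adjusted p = 0.0967, and 1.82, adjusted p = 0.39). These genes share sequence, so that a probe may read more than 1 of them. The complement genes C3 and C4b missed the size threshold, with log2 fold changes of 0.68 (adjusted p = 0.0191) and 0.95 (adjusted p = 0.000867), and every irradiated mouse lay above every control in both.

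Markers of the lung epithelium had no calls. None of 12 alveolar type 1, 16 alveolar type 2, 14 club and secretory and 13 ciliated cell genes was called, with median log2 fold changes of 0.21, 0.04, 0.02 and 0.34. Sftpb, surfactant protein B, had 16.91, 16.76 and 16.39 at 0 Gy and 16.74 and 16.85 in 8 Gy mice 5 and 15 but 14.72 in mouse 25. Hopx, of alveolar type 1 cells, had 14.75, 14.94 and 14.75 against 15.27, 14.89 and 15.69, which overlapped. The secretoglobin Scgb1a1 held the top value of the normalized scale, 18.62, on all 6 arrays, so that a change in it could not be read, and Sftpc at 18.24 to 18.40 was close to it.

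Of 26 endothelial genes 1 was called, in the lower direction, against 2.47% of all named genes lower. Aplnr, the apelin receptor, fell from 11.88, 11.34 and 11.59 to 9.38, 9.67 and 10.45 (log2 fold change -1.77, SE 0.29, adjusted p = 0.00142), with mouse 25 nearest to the controls. The general endothelial markers Pecam1 and Cdh5 were not called (-0.20 and -0.52). Of 32 genes of extracellular matrix and fibroblasts 3 were higher, against 0.694% of all named genes, and none was lower, with a median of 0.00. These were Timp1, an inhibitor of matrix metalloproteases (10.06, 10.59 and 10.61 to 11.81, 11.35 and 11.68, log2 fold change 1.19, SE 0.23), Ccn2, connective tissue growth factor (14.73, 14.08 and 14.45 to 15.49, 15.56 and 15.74, 1.18, SE 0.17), and the collagen crosslinking enzyme Lox (10.30, 9.84 and 9.88 to 11.06, 11.20 and 11.28, 1.17, SE 0.17). In all 3 genes the irradiated mice lay above the controls. The collagen genes Col1a1 and Col1a2 were not called, with log2 fold changes of -0.49 (SE 0.23) and -0.22 (SE 0.20), nor was the growth factor Tgfb1, which was lower in every irradiated mouse (-0.83, adjusted p = 0.0176). Timp1 lost its call with the slide as a random block. With the 6 arrays alone both Timp1 and Ccn2 lost theirs, which left 1 of the 3 called.

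Outside these lists, the largest rises included 2 carboxylesterase genes. Ces2e rose from 8.40, 9.37 and 9.57 to 12.38, 12.80 and 12.64 (log2 fold change 3.49, SE 0.27, 11.3-fold, adjusted p = 4.41e-06), and Ces2a from 5.21, 5.74 and 5.76 to 7.86, 8.49 and 7.92 (2.52, SE 0.30). They encode enzymes that hydrolyse drugs and lipid esters, and their sequences are similar. Mybl1, a MYB family transcription factor, rose from 7.25, 7.30 and 7.48 to 9.52, 9.41 and 9.57 (2.16, SE 0.15), Ddias, an antiapoptotic gene, from 5.77, 5.65 and 6.00 to 7.90, 8.19 and 7.78 (2.15, SE 0.18), and Tat, the tyrosine aminotransferase known as a glucocorticoid-induced gene in liver, from 7.44, 7.38 and 7.83 to 9.63, 10.07 and 9.57 (2.21, SE 0.33). These genes were named under a rule that required groups without overlap. Celf5, an RNA-binding protein, rose by 2.96 (SE 0.26) on one probe and was not called on a dimmer one (0.53). Pcdh20, a protocadherin, and Hspbap1, a protein that binds a heat shock protein, rose by 2.47 (SE 0.30) and 2.13 (SE 0.23) as log2 fold changes. Among the 15 named genes with the largest falls, those outside the lists were Zdhhc22, a palmitoyltransferase (11.97, 13.11 and 12.71 to 7.03, 7.76 and 6.05, -5.65, SE 0.50), and Btla, an inhibitory receptor of lymphocytes (10.22, 10.24 and 10.64 to 5.67, 5.58 and 5.67, -4.73, SE 0.21), the latter well above background in 2 of 3 irradiated mice.

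Few noncoding transcripts were called. Of 5243 tested probes for lncRNAs and for lincRNA regions, 53 (1.01%) were called, against 2.51% of all probes, and 26 of these were higher and 27 lower. The 5 with the largest change all fell. A lincRNA region probe on chromosome 8 had 7.75, 8.00 and 8.30 at 0 Gy, was not well above background at 8 Gy and was at least 8.08-fold lower (mean level 8.01 and 4.93, adjusted p = 2.13e-06), and one on chromosome 10 was at least 5.91-fold lower (7.56 and 4.80, adjusted p = 0.000635). One on chromosome 6, well above background in 1 irradiated mouse, fell from 7.98, 7.33 and 8.23 to 5.12, 4.84 and 5.09 (log2 fold change -2.83). The named lncRNAs Gm33301 (chromosome 15) and A630023P12Rik (chromosome 5) were at least 7.29-fold (mean level 8.05 and 5.19, adjusted p = 0.000674) and at least 4.67-fold lower (7.16 and 4.42, adjusted p = 3.45e-06). In all 5 the groups did not overlap.

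By the number of probes called against 0 Gy, 8 Gy lay between 4 and 12 Gy. Against the same 3 controls, 644 probes were called at 4 Gy and 3207 at 12 Gy, and of the 1105 called at 8 Gy, 577 were also called at 4 Gy and 941 at 12 Gy. Since these comparisons share their controls, the direct contrasts were tested. Between 8 and 4 Gy 4 probes were called (0.0091% of 43976), all lower at 8 Gy, and 2099 had an unadjusted p below 0.05. They included the lymphocyte genes Tnfrsf13c and Btla. Tnfrsf13c was 7.13, 6.66 and 6.57 in the 4 Gy mice and 4.83, 5.04 and 4.24 at 8 Gy, where it was not well above background, and was thus at least 3.31-fold lower (adjusted p = 0.0495), and Btla was 7.53, 6.84 and 6.81 against 5.67, 5.58 and 5.67 (log2 fold change -1.42, adjusted p = 0.0495). The median log2 fold change of the B cell list was -2.81 at 4 Gy, -3.96 at 8 Gy and -3.94 at 12 Gy, all against 0 Gy. Its members Fcer2a, Tnfrsf13c and Cd79a were not well above background in any 8 Gy mouse, so that a further fall at 12 Gy could not be read in them. The medians of the T cell (-1.92, -2.38 and -2.51), p53 target (0.85, 0.91 and 1.16) and glucocorticoid responsive lists (0.93, 1.20 and 1.28) lay in the order of dose, and that of the mitosis list did not (-1.38, -1.46 and -1.35). The count of 4 was 15 without 4 Gy mouse 4, 2 without 4 Gy mouse 14 or 24, 1 without 8 Gy mouse 5 or 15 and 6 without 8 Gy mouse 25.

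Between 12 and 8 Gy 81 probes were called (0.184% of 43979), 10 higher and 71 lower at 12 Gy, and this comparison is the one that 8 Gy mouse 25 touches most. It shares slide 5 with the 12 Gy mice, and without it 1702 probes were called, against 2 without 8 Gy mouse 5 or 15 and 141, 49 and 16 without 12 Gy mouse 6, 16 or 26. The clock gene Arntl was 7.88, 8.24 and 8.06 at 12 Gy and 7.07, 6.54 and 7.24 at 8 Gy (log2 fold change 1.11, adjusted p = 0.0295), and Ccdc184 9.12, 9.25 and 8.93 against 7.67, 7.93 and 7.72 (1.33, adjusted p = 0.0249). Spata24 and Tpm3, a tropomyosin, were lower at 12 Gy, with Tpm3 at 6.86, 6.61 and 6.32 against 8.23, 8.50 and 7.56 (SE of the log2 fold change 0.25, adjusted p = 0.0344).

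**Figure D4:**
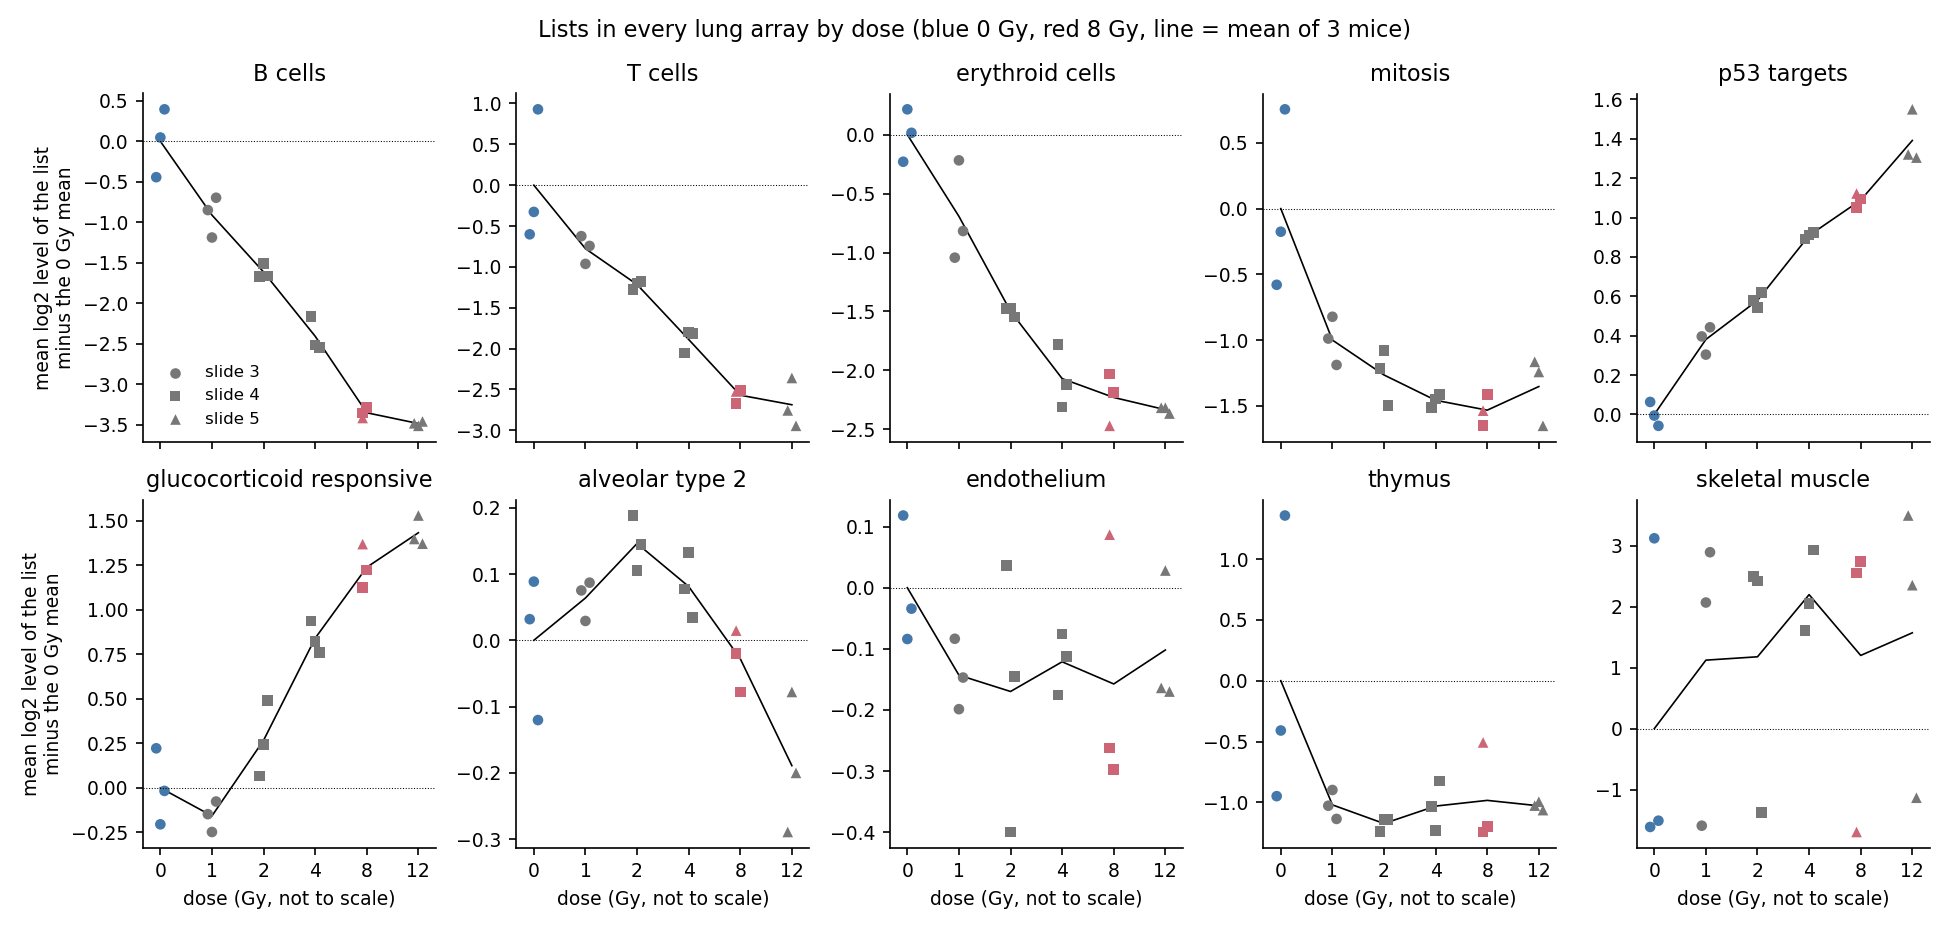
Each panel is 1 list, with the dose in Gy on the x axis (evenly spaced) and the mean log2 level of the list minus the 0 Gy mean on the y axis. Each point is 1 mouse, shaped by slide and coloured blue at 0 Gy, red at 8 Gy and grey elsewhere, and the line joins the means of 3 mice. The B cell list is at -3.42 to -3.29 in the 8 Gy mice and the p53 targets at 1.05 to 1.12, while the alveolar type 2 list stays between -0.08 and 0.01 there.

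The same 8 Gy contrast in liver differed from that in lung for 470 of 47376 probes (0.992%), tested as the difference between the 2 changes in a limma model of 36 arrays normalized together. The lung change was the higher of the 2 for 218 and the lower for 252, and the count was 220 without the samples numbered 21. Blood cell genes stood among those that fell further in lung. Alas2 fell from 13.39, 13.66 and 13.27 to 5.99, 6.33 and 6.14 in lung on this scale, against 12.35, 12.01 and 12.09 to 10.80, 10.92 and 11.37 in liver (difference -6.17, SE 0.51, adjusted p = 9.71e-08). For Cd3e and Cd3d the differences were -3.22 and -3.17, and for the B cell gene Cr2, well above background in 1 of 3 irradiated mice in either tissue, -3.63 (SE 0.39). The alpha globins went the other way, with a smaller fall in lung than in liver (differences of 2.27 for Hba-a1 and 2.13 for Hba-a2). Ces2e rose in lung and stayed below its liver level at both doses, at 7.67, 8.70 and 8.91 to 11.99, 12.47 and 12.29 in lung and 14.02, 14.31 and 14.60 to 14.86, 15.12 and 14.69 in liver (difference 3.24, SE 0.34). Cdkn1a could not be placed, since its 2 probes gave differences of opposite sign, 1.53 and -1.44.

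**Figure D5:**
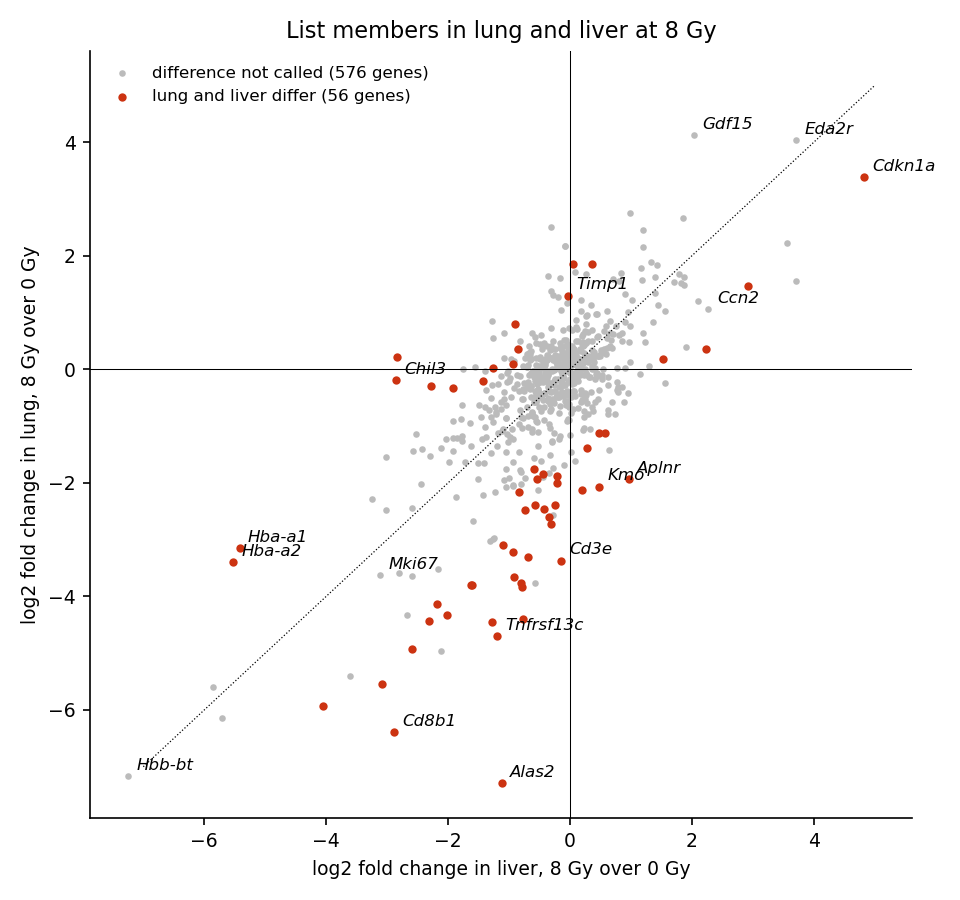
Each point is 1 of 632 list members tested in both tissues, with the log2 fold change of 8 Gy over 0 Gy in liver on the x axis and in lung on the y axis, from the 36 arrays normalized together. The 56 red points differ between the tissues by the test of the difference, and the dotted line marks equal change. Alas2, Cd8b1 and Cd3e lie below the line, and Hba-a1 and Hba-a2 above it.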

How the data were processed

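Lung mRNA of 6 mice, 3 at 0 Gy and 3 at 8 Gy, was read on 1-colour Agilent arrays, 1 per mouse, with the other 12 lung arrays in the same model. For each array the authors deposited the median spot intensity and the median local background intensity, neither normalized nor logged, as Agilent Feature Extraction 11.5.1.1 gave them per the file headers. The processed signal of that software and a table of series values, linear intensities whose scaling is not given in the sources used here and whose 75th percentile was 1.00 to 1.01 on every lung array, served as alternatives. Accessions on the arrays were looked up in RefSeq (GRCm38.p6), by which 34566 of 56605 probes were given 1 gene.

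Background was corrected with normexp in limma (offset 0). Controls were removed and outlier spots treated as missing. Quantile normalization over the 18 lung arrays followed, and each probe's log2 values were averaged over its spots. A probe needed at least 0.5 of its spots well above background on 1 array or more. Dose entered as 6 groups, with empirical Bayes moderation (limma) and Benjamini-Hochberg adjustment in each comparison. Called probes had an adjusted p below 0.05 together with a change of more than 1 in either direction on the log2 scale. For the tissue difference 36 lung and liver arrays were normalized together. The number of arrays, n = 3 mice per dose, limits the precision. Lower limits of a fold were used for probes not well above background on any array of a group: each dim array then took whichever was higher, the probe's value or the array's lowest value among probes well above background.

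The 35 gene lists and the genes to name were chosen with earlier results of these data known. Named are the 15 called genes that rose most and the 15 that fell most, where no 8 Gy mouse overlapped a 0 Gy mouse, the first 2 genes of each list and up to 4 further called members, the 5 genes with the largest change in each direction in the other comparisons, and the 5 noncoding probes with the largest change. A few genes that these rules name are not reported here. Other genes in the text were chosen after their values were seen. A list is described by counts and a median, with no test of its own, and each gene in it by its brightest probe. Of 654 list entries 6 had no named probe. The model code was tested on simulated data. Alternatives were another offset, scaling, filter and probe summary (transcript means, as in the study's methods), the processed signal, the series values, only the arrays compared, the slide as a term or block, and leaving out each mouse. Software versions were 4.3.3 for R, 1.5.0 for statmod, 3.58.1 for limma, 1.17.8 for data.table, 2.3.3 for pandas, 3.10.9 for matplotlib and 3.11.15 for Python.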

Additional observations from a re-analysis of the deposited data

Results flagged for a closer look

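The change at 8 Gy differed between lung and liver, by the test of the difference itself (limma, 36 arrays normalized together, n = 3 mice per dose and tissue), for 470 probes. Of the 152 probes named for the lung comparison, 42 were among them, 30 with the lower value in lung and 12 with the higher. Each value below is the log2 fold change in lung minus that in liver, and genes called in lung alone are not thereby shown to differ.

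Of the genes of the B cell list 12 of 20 had a called difference with the lower value in lung, of the T cell list 10 of 22 and of the natural killer and cytotoxic list 4 of 16, against 0.775% of all named genes, and none had one in the other direction. Among those not called were Ms4a1 (-1.79, adjusted p = 0.142) and Cd8a (-2.85, adjusted p = 0.0632), and the total of 470 probes was 158 with the slide as a random block. For the named T cell genes the called values were -3.17 (Cd3d), -3.22 (Cd3e), -2.96 (Cd3g), -3.04 (Lck) and -3.49 (Cd8b1). They include 0 Gy lung sample 21, where Cd8b1 was 13.72 against 9.71 and 11.08 in samples 1 and 11. Without the samples numbered 21 the total of 470 probes was 220, and the T cell count was not tested there. For named B cell genes they were -1.89 (Fcmr), -2.33 (Fcer2a), -2.62 (Cd79a), -3.63 (Cr2), -3.51 (Tnfrsf13c) and -2.12 (Fcrla), with -2.24 for the lymphocyte receptor gene Btla, -2.19 for H2-Ob of the class II pathway and -2.31 for the lymphotoxin gene Ltb. Cytotoxic cell genes gave -1.60 (Ncr1), -1.74 (Klrd1) and -1.38 (Ctsw), and monocyte genes -1.83 (Cd300e), -2.25 (Treml4) and -1.33 (Spn). Of the monocyte list 4 of 16 genes had a called difference, all with the lower value in lung. Of the 15 genes of the dendritic cell list 1 had a called difference, Kmo (-2.55). Of the 3 liver arrays at 8 Gy, Cr2 was well above background on 1 and Tnfrsf13c and Cd8b1 on 0, so that their liver change was limited by background. Fcer2a, Tnfrsf13c, Cd79a, A630023P12Rik and the lincRNA region on chromosome 8 were well above background on none of the 3 lung arrays at 8 Gy, so that their fall in lung is a lower limit and their differences are not exact.

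Alas2 of erythroid cells fell further in lung (-6.17), whereas the alpha globins fell further in liver (2.27 for Hba-a1 and 2.13 for Hba-a2). Of 30 replication genes 1 had a called difference, Tk1 (-2.33), and of 28 repair genes 1, Brca1 (-1.70), both with the lower value in lung. Of 30 mitosis genes 0 had one. Lower values in lung were also those of Aplnr of endothelium (-2.89), Zdhhc22 (-3.30), the lncRNA A630023P12Rik (-2.61) and the lincRNA region on chromosome 8 (-2.03). Gm45941 (-3.38) rose in liver, with a log2 fold change of 3.38 there, and was not well above background on any lung array of the 2 doses.

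Higher values in lung were those of Ces2e (3.24), Ces2a (1.79), Hspbap1 (2.05), Celf5 (1.69), Tat (1.66), Cfb (1.51) and Timp1 (1.33), which rose in lung, and of Chil3 (2.66) and Ifit1 (1.29), which were not called there. Serpina9 (5.11), Hsd3b5 (4.30), Napsa (3.06) and Slco1a1 (2.99) fell in liver and were not called in lung. The study ties Serpina9 to B cell development, and its difference (log2 fold change 0.48 in lung and -4.63 in liver) had the opposite sign to those called in the B cell list. Hsd3b5 and Slco1a1 were not well above background on any lung array of the 2 doses, and Napsa, an aspartic protease of alveolar type 2 cells, on no liver array at 8 Gy. The probes of Cdkn1a gave 1.53 and -1.44, so that no direction holds for the gene.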

How the results depend on the processing

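Called probes among the 152 named kept their sign under each alternative in which they were tested, and at most 20 lost their call under any 1 (with only the arrays compared). The count of 1105 probes called at 8 against 0 Gy became 530 with only the 6 arrays compared and 689 with the slide as a random block, and ranged from 872 to 1315 without any 1 mouse. A fit with the slide as a fixed term could not give this contrast, since no slide holds both doses. Between 8 and 4 Gy the count of 4 became 0 at an offset of 50, on the processed signal and with only the arrays compared, 2 with the slide as a random block and with no filter on dim probes, and 9 with the strict filter (well above background on all arrays of a group), and ranged from 1 (without 8 Gy mouse 5 or 15) to 15 (without 4 Gy mouse 4), with 2 without 4 Gy mouse 14 or 24. With the slide as a fixed term it was 6, 3 of them higher. Between 12 and 8 Gy the count of 81 became 34 at an offset of 50, 161 on the series values, 4 with scaling to the 75th percentile, 0 with only the arrays compared, 154 with the slide as a fixed term (39.6% of them higher, against 12.3%), 2 with the slide as a random block and 132 with the strict filter, and ranged from 2 (without 8 Gy mouse 5 or 15) to 1702 (without 8 Gy mouse 25), with 141, 49 and 16 without 12 Gy mice 6, 16 and 26. Where a count was 0, 1954, 2091, 1050 and 4408 probes had an unadjusted p below 0.05 in the order given. The cause of these movements was not tested.

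The tissue difference of 470 probes became 970 on the processed signal, where 25.4% were higher in lung against 46.4% and the median over all probes moved from 0.02 to -0.16, and 158 with the slide as a random block, an alternative chosen after seeing the data. It ranged from 220 (without number 21) to 493 without the samples of any 1 number. Lung and liver samples share numbers, but the labels do not say that a number marks 1 animal, and the deviations of same-numbered samples from their group means correlated between -0.05 and 0.05. With the number as a replicate block 314 probes were called. No paired analysis was possible because the 0, 4, 8 and 12 Gy lung samples share no number with each other. A low signal limits 222 of the 1105 probes to a bound.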

Other observations

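Markers of tissues around the lung varied between the 6 samples, and no member of the hepatocyte, skeletal muscle, basal epithelium, adipocyte, cardiac muscle or mesothelium lists was called at 8 against 0 Gy. Alb, the albumin gene of hepatocytes, had levels of 8.31, 10.48 and 11.82 in 0 Gy mice 1, 11 and 21 and of 7.36, 12.28 and 8.35 in 8 Gy mice 5, 15 and 25, and the mean of 14 hepatocyte markers, counted from the 0 Gy mean, was 1.78 in 8 Gy mouse 15 and between -1.78 and 0.86 in the other 5. Acta1, of skeletal muscle, had 13.75 in 0 Gy mouse 11 and 13.07 and 13.38 in 8 Gy mice 5 and 15, against 6.56 to 7.48 in the other 3. Krt14, of basal epithelium, was highest in the same 3 mice (11.25, 12.58 and 12.20, against 6.88 to 8.55). Adipoq, of adipocytes, lay between 13.35 and 14.59, and Myh6, of cardiac muscle, between 13.14 and 14.55, with overlapping doses in both. The median log2 fold changes of the 12 cardiac muscle, 10 adipocyte and 8 mesothelium markers were -0.15, 0.21 and 0.05.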
